A study of Mus musculus with 2 samples.

Results

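The 9 genes described here build, load and control the major histocompatibility complex class II molecule, which displays peptides to CD4 T cells. They were chosen by symbol, and all 9 were found among the 32432 genes of the deposited matrices. No measured value was part of the rule of choice, but earlier results of these data were known when it was made. They fall into 5 roles. H2-Aa and H2-Ab1 encode the alpha and beta chains of the surface molecule I-A, and H2-Eb1 encodes the beta chain of I-E. The alpha chain of I-E is not among the members, and RNA of H2-Eb1 alone does not show I-E at the surface. Cd74 encodes the invariant chain, which occupies the peptide groove on the way to the endosome. H2-DMa, H2-DMb1 and H2-DMb2 encode chains of the DM exchange factor that replaces the last piece of invariant chain with peptide, and H2-Oa encodes a chain of DO, which restrains DM. Ciita encodes the coactivator that switches the other genes on.

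As background, class II genes are constitutive in dendritic cells and B cells, where separate Ciita promoters are used, and are inducible by interferon gamma in monocytes and macrophages. Dendritic cell maturation shuts down Ciita transcription while existing class II protein stays at the surface. DO is best known in B cells and in some dendritic cells. Mouse T cells transcribe few or no class II chains, so chain counts found in T cells served as a measure of free RNA in the droplets.

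Leukocytes of B16-F10 melanoma, a transplantable mouse tumour line, were compared between 2 genotypes, with 4 hashtagged samples of each. The mice were male and 8 to 12 weeks old. All carried R26CreERT2-ki/wt, a tamoxifen-inducible Cre at the ubiquitously active Rosa26 locus. The iKO samples were Trex1 fl/fl and the control samples Trex1 wt/fl, so the control carries 1 conditional allele and is not a wild type. Both groups received 1000 tumour cells in Matrigel in the skin of each leg, 1 mg tamoxifen on 3 days from day 5, and were harvested on day 14. The sorted cells were alive and CD45-positive. They are labelled lymphocytes, but 8639 of the 22052 cells kept were gated as monocytes or macrophages. Each genotype was run as 1 pool, and what belongs to the genotype and what to the pool cannot be told apart. The labels do not say that each sample is 1 mouse, and p-values measure the spread between these samples.

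Sample totals ran from 19370674 to 96457227 UMIs in iKO and from 17111065 to 33319752 in control. The median UMI count per kept cell was 12983 to 14490.5 in iKO and 6405 to 11845.5 in control. Trex1 itself, the targeted gene, had 2 UMIs in control sample 2 and 0 in the other 7 samples, so its loss could not be checked in these libraries. No barcode was shared within a pool, and 0 to 6 were shared between matrices of different pools. Cells were assigned to classes by the number of detected marker genes, none of which is among the 9 genes. This placed 19550 cells and left 2502 (11.3%) ungated. The antigen-presenting classes were 239 cDC1, 351 cDC2, 509 mature dendritic cells (Ccr7, Fscn1 and others), 140 plasmacytoid dendritic cells, 878 B cells and the monocytes/macrophages. Of the B cells, 489 came from control sample 3.

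The proximal promoters of 5 members are shown because members that share a regulator differed in how far they moved between the genotypes. Each run gives bases -120 to -21 from the RefSeq transcript start, read 5' to 3' on the gene's strand. Capitals mark 3 motifs searched on both strands. These were GATTGG (the Y box, the reverse of CCAAT), GATGATGC (an X box core) and TGACGTCA (an X2 box). The letters were chosen after these promoters were read, so a match is a description.
H2-Aa: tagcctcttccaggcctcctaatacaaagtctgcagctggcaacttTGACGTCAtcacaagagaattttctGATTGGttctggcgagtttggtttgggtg
H2-Eb1: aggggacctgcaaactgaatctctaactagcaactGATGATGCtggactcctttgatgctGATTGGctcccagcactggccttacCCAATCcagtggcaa
H2-DMb1: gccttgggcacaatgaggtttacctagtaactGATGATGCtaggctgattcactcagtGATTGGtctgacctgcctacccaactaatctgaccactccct
H2-DMb2: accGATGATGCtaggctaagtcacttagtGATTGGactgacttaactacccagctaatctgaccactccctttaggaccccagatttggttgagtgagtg
H2-Oa: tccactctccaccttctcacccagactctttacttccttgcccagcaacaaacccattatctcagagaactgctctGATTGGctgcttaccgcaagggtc
They lie on chromosome 17 of GRCm38.p6, which is not the GRCm39 build of the counts, at chr17:34287844-34287943 (minus strand, H2-Aa), chr17:34305747-34305846 (H2-Eb1), chr17:34153071-34153170 (H2-DMb1), chr17:34145129-34145228 (H2-DMb2) and chr17:34092259-34092358 (H2-Oa), the last 4 on the plus strand. All hold upstream sequence, not exons. Of the 32851 mouse promoters of 300 bases in the same RefSeq table, 16.1% hold GATTGG, 0.703% hold GATGATGC and 1.79% hold TGACGTCA. H2-DMb1 and H2-DMb2 carry the same X and Y letters at the same spacing, with the X box starting at -88 and -117 and the Y box at -62 and -91. H2-Eb1 has GATGATGC at -85 and GATTGG at -60, and a reverse copy of GATTGG at -35. H2-Aa has TGACGTCA at -74 and GATTGG at -49. H2-Oa has only GATTGG, at -44. In the table, 6 of the 9 members were found. Neither of the H2-DMa windows -120 to -21 holds any of the 3 motifs.

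Conventional dendritic cells led the order of levels for 7 of the 9 genes. H2-Ab1, the I-A beta chain, was at 7779, 10516, 11700 and 10436 CPM (UMIs scaled to the class's summed total) in cDC2 of iKO samples 1 to 4 and at 7785, 9303, 9419 and 9895 in control. In B cells it was at 2565, 2772, 2690 and 2524 in iKO and at 2602, 2215, 2198 and 2553 in control. In monocytes/macrophages it was at 2778, 2608, 2510 and 2829 in iKO and at 2659, 4345, 4051 and 3269 in control. The cDC2 values lay above those of both other classes in every sample, and the genotypes overlapped in all 3 classes.

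**Figure D1:**
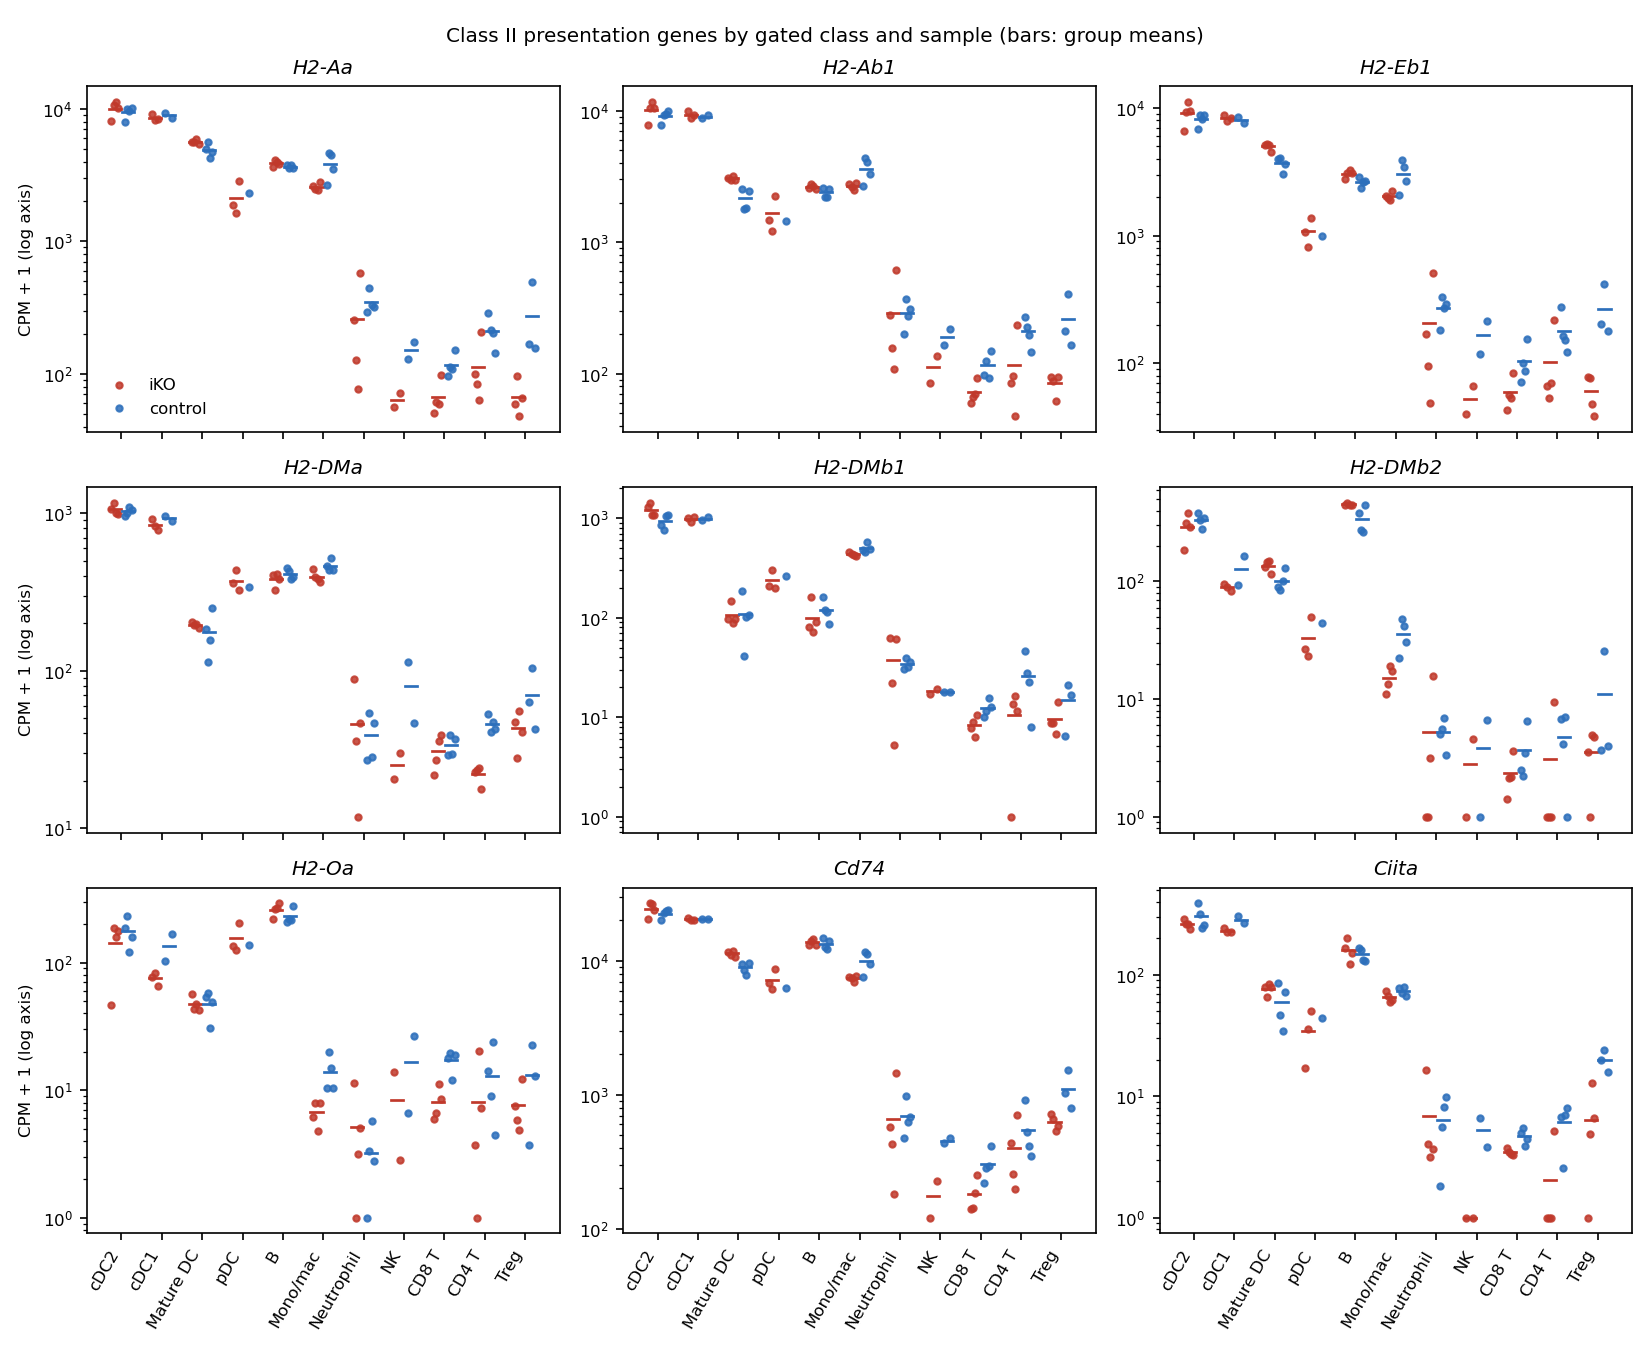
Level of each of the 9 genes (CPM + 1, log axis) in 11 gated classes; each point is 1 sample with at least 20 cells of the class, red for iKO and blue for control, and bars are group means. H2-Ab1 runs from 7779 to 11700 CPM in cDC2 and from 58.4 to 148 in CD8 T cells, while H2-Oa and H2-DMb2 are highest in B cells.

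The order of classes differed between the genes. H2-Aa, H2-Ab1, H2-Eb1, Cd74, H2-DMa, H2-DMb1 and Ciita were highest in cDC2 and next in cDC1. H2-DMb2 was highest in B cells, followed by cDC2 and mature dendritic cells. H2-Oa was highest in B cells, followed by plasmacytoid dendritic cells, cDC2 and cDC1. H2-Oa was at 220, 262, 267 and 290 CPM in B cells of iKO and at 207, 220, 215 and 278 in control, against 5.16, 6.91, 3.77 and 6.97 in monocytes/macrophages of iKO and 9.46, 18.9, 13.9 and 9.47 in control. All 8 samples had more H2-Oa in B cells than in monocytes/macrophages.

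The 2 beta chain genes of DM did not share 1 order. H2-DMb1 was at 79.6, 159, 70.3 and 88.7 CPM in B cells of iKO and at 160, 120, 113 and 85.1 in control. H2-DMb2 was at 445, 467, 445 and 444 in B cells of iKO and at 378, 271, 264 and 448 in control. H2-DMb1 was higher in monocytes/macrophages than in B cells, at 419 to 462 in iKO and 452 to 573 in control, and H2-DMb2 was lower, at 10.0 to 18.2 and 21.2 to 47.2. These are levels of 3' tags of 2 similar genes. In the GENCODE vM21 transcripts, 20.4% of the 50-base words in the last 500 bases of H2-DMb1 also occur in H2-DMb2. Of 451 such words of H2-DMb2, 0 occur in H2-DMb1. Some H2-DMb1 reads could thus match both genes, and how such reads were counted was not checked.

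Mature dendritic cells kept part of the pattern of cDC2. Their H2-Eb1 level, 5102, 5223, 5070 and 4541 CPM in iKO and 3968, 4051, 3055 and 3658 in control, lay below that of cDC2 in the same sample in all 8 samples. Ciita was at 64.7 to 83.7 in iKO and 33.2 to 83.9 in control, against 236 to 289 and 243 to 386 in cDC2. H2-DMa was at 187 to 202 and 113 to 249, against 989 to 1167 and 954 to 1093 in cDC2. The ranges of the 2 classes did not overlap for any of these genes.

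Neighbouring classes in the orders of levels were compared within samples by exact two-sided sign-flip permutation tests on log2(CPM + 1). None of the 117 neighbour pairs passed an adjusted p of 0.05. The lowest adjusted p was 0.0762, and 21 pairs had an unadjusted p under 0.05. With 8 samples the smallest p the design allows is 0.0078. With 5 samples it is 0.0625 and with 4 it is 0.125, so those pairs could not pass. With 7 samples the smallest p is 0.0156. The orders came from the same levels, so pairs and their directions were taken from the data tested. Levels of a pair that did not pass are not shown to be alike. In 12 pairs all 8 samples went one way. H2-DMb2 was 1.40 higher on this log2 scale in cDC2 than in mature dendritic cells, and H2-Oa was 1.77 higher in the monocytes/macrophages outside both subset gates than in CD8 T cells.

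Which cells held the transcripts also differed by gene. Monocytes/macrophages, 46.7% ± 7.7 (SD, n = 4) of kept iKO cells and 31.8% ± 12.98 of control cells, held 62.7% ± 5.8 of H2-Ab1 UMIs in iKO and 55.0% ± 10.1 in control. They held 25.4% ± 2.1 of H2-DMb2 UMIs in iKO and 27.4% ± 8.6 in control. The cDC2, 1.51% and 2.30% of cells, held 20.0% ± 9.8 and 24.4% ± 5.1 of the H2-DMb2 UMIs. B cells held 9.75% ± 5.41 of H2-Oa UMIs in iKO and 13.8% ± 13.03 in control. The ungated cells held 11.9% and 16.1% of the H2-Ab1 UMIs and 22.3% and 22.2% of the H2-Oa UMIs, on average more H2-Oa than any 1 gated class.

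**Figure D2:**
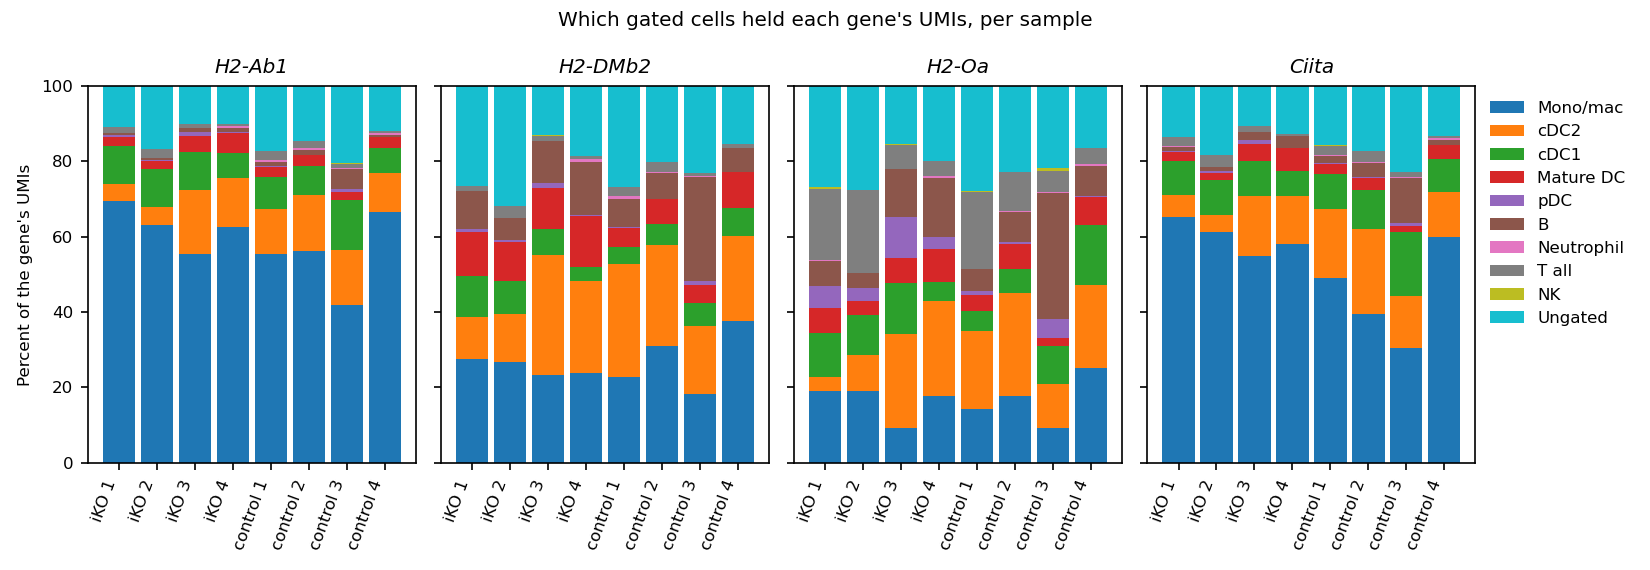
Stacked percentage of each gene's UMIs held by each gated class, 1 bar per sample, for H2-Ab1, H2-DMb2, H2-Oa and Ciita in 4 iKO and 4 control samples. Monocytes/macrophages hold on average 62.7% and 55.0% of H2-Ab1 UMIs and 16.2% and 16.7% of H2-Oa UMIs.

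The levels in T cells, set beside those of the other classes, differed by gene. H2-Aa was at 49.8, 60.1, 58.2 and 96.4 CPM in CD8 T cells of iKO and at 95.4, 111, 107 and 149 in control. The T cell level of H2-Aa came to 0.573% to 0.954% of the cDC2 level in iKO and to 1.45% to 1.93% in control. In monocytes/macrophages it was 1.96% to 3.77% of the class level in iKO and 3.21% to 4.57% in control. Neutrophils stood closer to the T cell level: it was 16.9% to 120% of the neutrophil H2-Aa level in iKO and 41.6% to 46.9% in control. H2-Oa in monocytes, at 1.60 to 2.42 CPM in iKO and 3.99 to 10.3 in control, lay below the T cell level in every sample.

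One source of free RNA keeps its genes in 1 ratio in all classes of a sample, and for 3 genes the ratio in a T cell class lay outside that in the monocytes/macrophages. CD8 T cells held 2.80 to 6.44 H2-Oa UMIs per 100 UMIs of H2-Aa, H2-Ab1 and H2-Eb1 together. Monocytes/macrophages held 0.055 to 0.147, B cells 2.24 to 3.16 and plasmacytoid dendritic cells 2.91 to 3.38. The H2-DMa ratio was 7.94 to 19.4 in CD8 T cells and 3.39 to 6.21 in monocytes/macrophages, without overlap. For Cd74 the ratio was 77.8 to 103 in CD8 T cells and 91.1 to 105 in monocytes/macrophages, which overlap. In regulatory T cells it was 116 to 348 with a median of 257. H2-Oa and H2-DMa in CD8 T cells and Cd74 in regulatory T cells were thus higher, for the chains counted with them, than monocyte/macrophage RNA would give. Which other source they had was not tested. H2-Oa lay below its T cell level in monocytes, so for this gene the T cell level is not a level of free RNA common to all classes. For H2-DMa and Cd74 the ratios cannot decide this, since free RNA can come from several classes and monocytes/macrophages hold their own transcripts. Whether H2-Oa in monocytes was expression or free RNA was not tested.

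**Figure D3:**
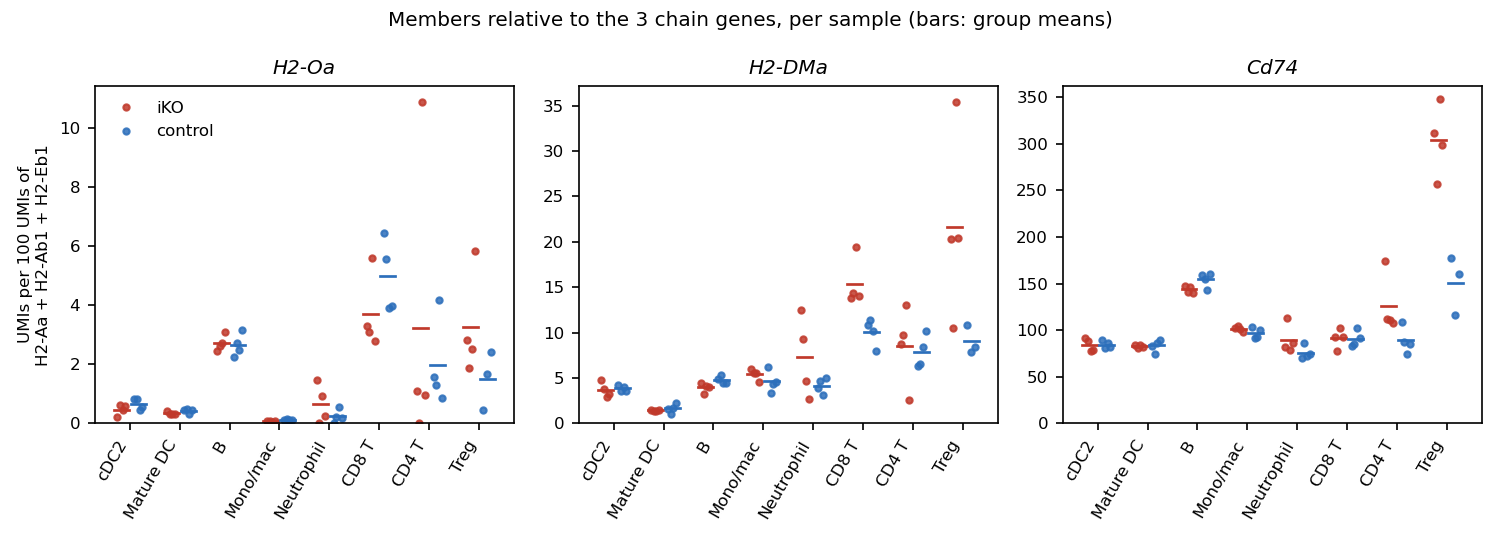
UMIs of H2-Oa, H2-DMa and Cd74 per 100 UMIs of H2-Aa, H2-Ab1 and H2-Eb1 together, by class; each point is 1 sample, red for iKO and blue for control. The H2-Oa ratio is 2.80 to 6.44 in CD8 T cells and 0.055 to 0.147 in monocytes/macrophages.

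The genotypes were compared by edgeR's quasi-likelihood test on counts summed per sample and class, with Benjamini-Hochberg adjustment over all genes of the class and a threshold of 0.05. A gene past it is said to have fallen or risen, by its log2 fold change of iKO against control. The fit scales samples by TMM factors, and the CPM printed are of summed counts alone. In monocytes/macrophages 5 of the 9 genes fell in iKO, against 5.28% of all 11687 genes tested in that class, and 0 rose. The members' median log2 fold change was -0.47, against -0.00 for all genes. In summed samples, fewer cells that carry a transcript and less transcript per cell cannot be told apart.

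Of the 3 chain genes, H2-Aa and H2-Eb1 fell. H2-Aa in monocytes/macrophages was at 2601, 2500, 2423 and 2788 CPM in iKO and at 2659, 4607, 4480 and 3511 in control. Control sample 1 lay inside the iKO range and the other 3 control samples above it. H2-Aa fell by 0.61 on the log2 scale (SE 0.15, adjusted p 0.0370). H2-Eb1, at 2039, 1975, 1898 and 2248 in iKO and 2077, 3914, 3458 and 2683 in control, fell by 0.61 (SE 0.17, adjusted p 0.0483). For H2-Ab1 the fold change was -0.46 (SE 0.14, adjusted p 0.0638), past no threshold. The calls of H2-Aa and H2-Eb1 were lost in 7 of 8 fits that left out 1 sample and stood only in the fit without control sample 1, where the adjusted p values were 0.0072 and 0.0106.

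Cd74, the invariant chain, moved with the chains it accompanies. It was at 7592, 7404, 6938 and 7734 CPM in iKO and at 7619, 11724, 11170 and 9473 in control, and fell by 0.47 (SE 0.13, adjusted p 0.0424). Control sample 1 was again inside the iKO range. This call, too, was lost in 7 of 8 fits with 1 sample left out, with adjusted p values up to 0.107.

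Of the exchange factor genes only H2-DMb2 was called in the class as a whole. H2-DMb2 was at 10.0, 12.4, 18.2 and 16.3 CPM in monocytes/macrophages of iKO and at 21.2, 47.2, 40.9 and 29.6 in control, without overlap. It fell by 1.34 (SE 0.25, adjusted p 0.0133), and the call stood in all 8 fits with 1 sample left out. H2-DMa was at 442, 395, 382 and 362 in iKO and 459, 436, 517 and 435 in control, and H2-DMb1 at 462, 437, 426 and 419 against 476, 452, 573 and 493. The groups overlapped for both genes, and the adjusted p values were 0.113 and 0.121. Both fell within the Cxcl9/10 state and within cells of neither state, and neither was called in the Arg1 state, as given below. The shares of these states in the class differed between the groups. H2-Oa, the DO chain whose levels are given above, fell by 1.17 (SE 0.27, adjusted p 0.0262). Its call was lost without iKO sample 1, control sample 2 or control sample 3, and the T cell level of H2-Oa came to 80.1% to 228% of that of this class in iKO.

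Ciita, the coactivator, was not called in the class as a whole. It was at 71.8, 66.4, 58.5 and 61.3 CPM in iKO and at 76.1, 69.2, 78.6 and 66.3 in control. The ranges overlapped, and the fold change was -0.20 (SE 0.11, adjusted p 0.231).

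**Figure D4:**
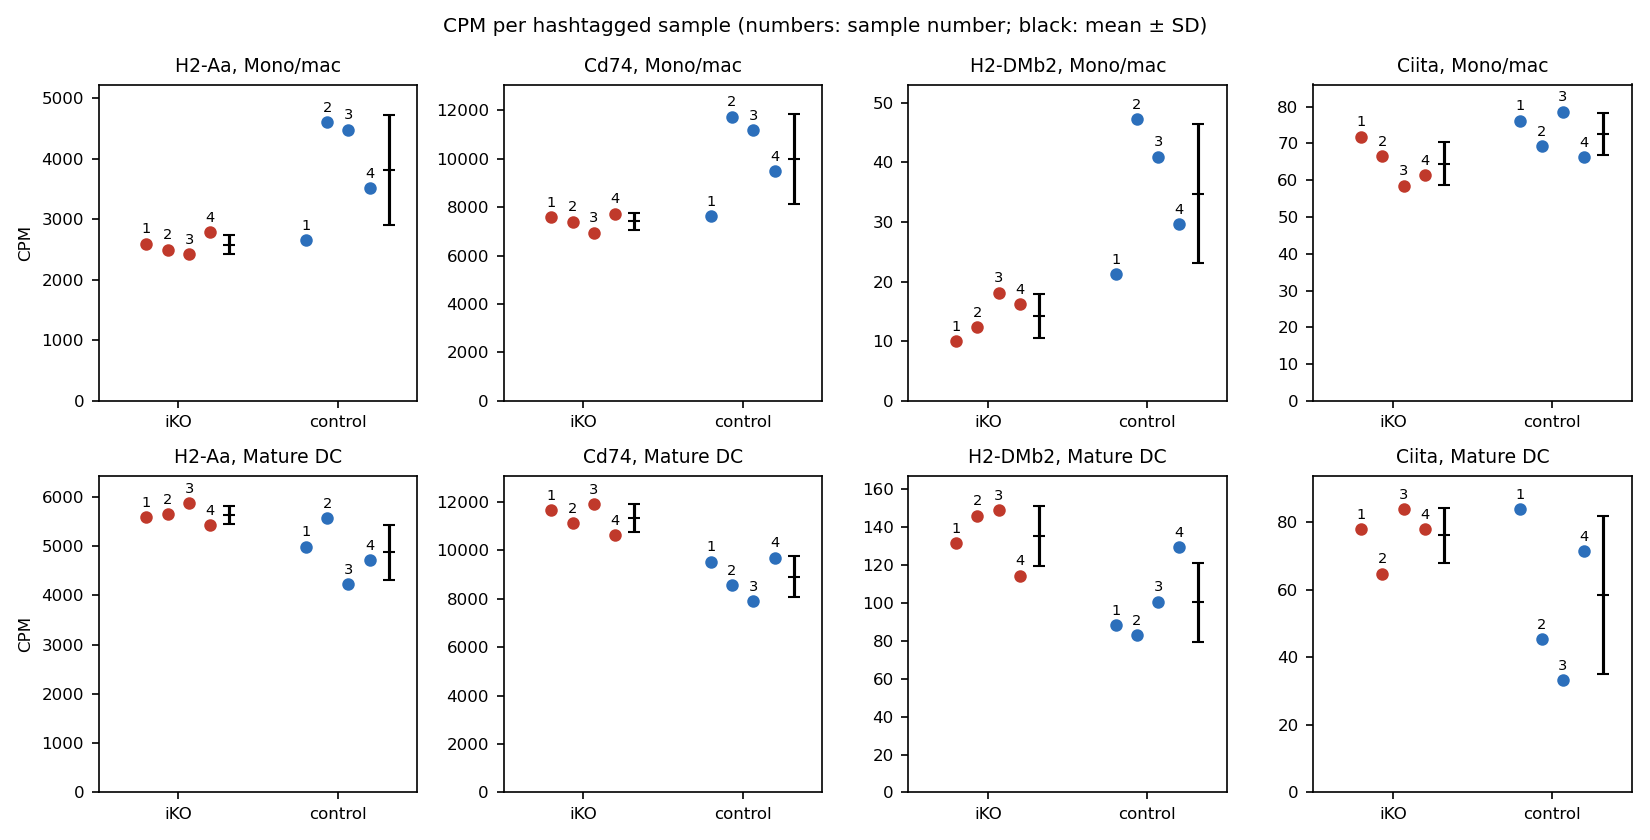
H2-Aa, Cd74, H2-DMb2 and Ciita (CPM) in monocytes/macrophages and in mature dendritic cells; each point is 1 sample and bars are mean ± SD of 4 samples. In monocytes/macrophages 3 of 4 control samples lie above all iKO samples for H2-Aa and Cd74, and in mature dendritic cells every iKO sample lies above every control sample for Cd74.

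Markers of other cells also differed between the groups, in both directions. The conventional dendritic cell markers Flt3 and Zbtb46 summed to 2.05 to 2.80 CPM in monocytes/macrophages of iKO and to 3.48 to 8.40 in control, without overlap, and both were lower in iKO. Of the 5 cDC2 markers 4 were lower in iKO, with sums of 311 to 459 and 361 to 451, and Cd209a, a lectin of cDC2, averaged 6.41 and 21.7. The 6 mature dendritic cell markers (7.91 to 19.7 and 14.2 to 24.0) and the 6 B cell markers (6.59 to 14.7 and 10.7 to 17.4) were also all lower. The sums of the 5 cDC1 markers went the other way, at 49.9 to 65.7 in iKO and 34.0 to 52.7 in control, which overlap. Of these markers 2 were lower in iKO. T cell markers were higher in iKO, at 64.7 to 77.9 against 39.96 to 50.3, and no marker of these lists was at 0 in either group. C1q macrophages made up 36.5% ± 0.2 of the class in iKO and 46.7% ± 3.8 in control. Their part in the class II differences was not tested.

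The subsets of the class were tested in turn. In the 3470 C1q macrophages 2 genes fell, against 1.58% of genes tested. These were H2-DMb2, by 1.33 (SE 0.23, adjusted p 0.0269), and H2-Oa, by 1.27 (SE 0.21, adjusted p 0.0264). Either call was lost in 5 of 8 fits with 1 sample left out. The T cell level of H2-Oa came to 109% to 234% of that of C1q macrophages in iKO and to 107% to 214% in control. In the 4044 monocytes, defined by Vcan, Chil3 and others with at most 1 C1q gene, 5 genes fell, against 6.68%. H2-Aa fell by 0.83 (SE 0.21, adjusted p 0.0276), H2-Ab1 by 0.68 (SE 0.19, adjusted p 0.0385) and H2-Eb1 by 0.88 (SE 0.23, adjusted p 0.0308). H2-DMb2 fell by 1.51 (SE 0.33, adjusted p 0.0151) and H2-Oa by 1.54 (SE 0.31, adjusted p 0.0115). The calls of H2-DMb2 and H2-Oa stood in all 8 fits with 1 sample left out, and those of the 3 chains were lost in 5 or 6 of them. H2-Oa in monocytes, too, lay below its T cell level, which came to 252% to 411% of it in iKO and 147% to 309% in control. The conventional dendritic cell markers summed to 1.23 to 4.08 CPM and 4.28 to 9.34 in C1q macrophages and to 0.380 to 1.46 and 1.41 to 6.52 in monocytes. The cDC1 markers summed to 54.2 to 89.0 in iKO and 36.7 to 67.9 in control in C1q macrophages. In monocytes they were higher in iKO without overlap, at 43.3 to 46.7 against 29.8 to 36.8.

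The remaining 1125 monocytes/macrophages, outside both subset gates, had 7 genes lower, against 7.77%. H2-Aa was at 4404, 4312, 4240 and 5286 CPM in iKO and at 5415, 6617, 8788 and 6138 in control, without overlap, and fell by 0.72 (SE 0.14, adjusted p 0.0088). H2-DMb2 fell by 1.62 (SE 0.26, adjusted p 0.0042) from 93.2, 142, 192 and 124 in control to 30.5, 47.9, 73.3 and 57.4 in iKO. H2-Ab1 fell by 0.65, H2-Eb1 by 0.73, H2-DMa by 0.57, H2-Oa by 1.38 and Cd74 by 0.61, with adjusted p values of 0.0064 to 0.0156. H2-DMb1 and Ciita did not pass, at adjusted p values of 0.0947 and 0.260. With these cells left out, 6 of the 9 genes fell in the monocytes/macrophages, a count added after the data were seen. The share of all genes called in that fit is not given here. Of the 5 cDC2 markers 4 were lower in iKO in the remaining cells, with sums of 319 to 680 CPM against 641 to 1043 in control, and Cd209a averaged 33.9 and 142. Of the 6 B cell markers 5 were lower (8.13 to 16.6 and 14.7 to 31.2), with Pax5 at 0 in 1 group, and T cell markers were higher without overlap (71.6 to 92.4 and 49.03 to 66.7). Flt3 and Zbtb46 together overlapped (5.17 to 12.5 and 2.93 to 12.8). The part of these cells in the result was not tested.

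Cells were also divided by inflammatory state, since Cxcl9 and Cxcl10, chemokines induced by interferon, and Arg1, an arginase of suppressive macrophages, mark opposite states. A state needed at least 2 UMIs of its own genes and fewer than 2 of the other's, and 355 cells that passed both were not tested. Cells with Cxcl9 or Cxcl10 made up 43.5% ± 18.1 of monocytes/macrophages in iKO and 17.7% ± 6.9 in control, and cells with Arg1 7.0% ± 3.2 and 23.9% ± 9.7. In the 3288 cells of the Cxcl9/10 state all 9 genes fell, against 2.68% of genes tested. For all 9 every iKO sample lay below every control sample, as it did for 6.92% of all genes tested. H2-Aa was at 2935, 2941, 3263 and 3471 CPM in iKO and at 4230, 7195, 5761 and 5057 in control. It fell by 0.87 (SE 0.14, adjusted p 0.0114).

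In the Cxcl9/10 state the loading genes moved with the chains. H2-DMa, at 498, 468, 495 and 497 CPM in iKO and 712, 690, 676 and 777 in control, fell by 0.60 (SE 0.08, adjusted p 0.0080). H2-DMb1 fell by 0.56 (SE 0.09, adjusted p 0.0106) and H2-DMb2 by 1.71 (SE 0.31, adjusted p 0.0152). H2-Ab1 fell by 0.74, H2-Eb1 by 0.94, Cd74 by 0.71 and H2-Oa by 1.53, with adjusted p values of 0.0088 to 0.0193. Ciita was at 88.1, 79.9, 99.1 and 92.9 in iKO and at 116, 126, 101 and 146 in control, and fell by 0.51 (SE 0.12, adjusted p 0.0370). Its lowest control value stood just above its highest iKO value, and the call was lost in 6 of 8 fits with 1 sample left out. The calls of H2-Aa, H2-Eb1, H2-DMa, H2-DMb1, H2-Oa and Cd74 stood in all 8. The T cell level of H2-Oa came to 80.1% to 228% of that of all monocytes/macrophages in iKO and to 80.3% to 155% in control. H2-Oa was not tested in this state once the T cell level was subtracted from every gene. With the T cell level subtracted from every gene 0 members were called in this state by edgeR, at fold changes from -0.67 (Ciita) to -1.97 (H2-DMb2) and adjusted p values of 0.0506 to 0.155 for the 8 genes still tested, all at an unadjusted p under 0.05.

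The make-up of the Cxcl9/10 state differed between the groups as well. All 3 C1q genes were lower in iKO, with sums of 2175 to 2915 CPM against 2929 to 5050 in control. The conventional dendritic cell markers overlapped (2.76 to 6.03 and 2.51 to 9.45), 4 of 5 cDC2 markers were lower (302 to 458 and 413 to 659), and the T cell markers were higher (60.6 to 74.7 and 26.6 to 48.3). The mature dendritic cell marker Tmem150c was at 0 in 1 group. Since the genes that define the state differ between the genotypes, the same gate may take different cells in each. Its part in the result was not tested.

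In the 3904 cells with neither state 5 genes fell, against 3.16%. Ciita was at 54.4, 59.6, 47.7 and 54.9 CPM in iKO and at 77.2, 80.6, 87.6 and 81.4 in control. These ranges did not overlap, and Ciita fell by 0.66 (SE 0.10, adjusted p 0.0031). H2-DMa fell by 0.60 (SE 0.10, adjusted p 0.0052), H2-DMb1 by 0.62 (SE 0.11, adjusted p 0.0067), H2-DMb2 by 1.62 (SE 0.37, adjusted p 0.0243) and H2-Aa by 0.92 (SE 0.24, adjusted p 0.0445). The calls of Ciita, H2-DMa and H2-DMb1 stood in all 8 fits with 1 sample left out, that of H2-DMb2 in 3 and that of H2-Aa in 1. The markers Flt3 and Zbtb46 summed to 0.967 to 2.57 CPM in iKO and 4.18 to 10.9 in control. The cDC1 markers were higher in iKO, at 53.7 to 67.4 against 40.6 to 50.7.

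In the 1092 cells of the Arg1 state edgeR called 0 of the 8 members tested, against 0.408% of genes lower, with 5 at an unadjusted p under 0.05, and DESeq2 called 3 lower. H2-Oa did not pass the filter on low counts there. H2-Aa was at 1517, 1304, 1491 and 1726 CPM in iKO and at 1484, 2112, 2748 and 2388 in control. Ciita was at 2.24 to 16.3 and 14.5 to 21.0, below its level in the Cxcl9/10 state in all 8 samples. Without control sample 1, 4 members fell. The shares of all genes called in that fit and by DESeq2 are not given here.

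Mature dendritic cells stood the other way round. H2-Ab1 was at 3089, 2954, 3186 and 2961 CPM in iKO and at 2535, 1792, 1826 and 2436 in control. Cd74 was at 11667, 11137, 11908 and 10639 in iKO and at 9539, 8560, 7896 and 9693 in control. For H2-Ab1, H2-Eb1 and Cd74 every iKO sample lay above every control sample, as it did for 4.02% of all genes tested. EdgeR called 0 of the 9 genes, against 0.112% of genes higher, with 4 at an unadjusted p under 0.05, and DESeq2 called 2 higher. The share of all genes called by DESeq2 is not given here. The members' median log2 fold change was 0.38, against -0.00 for all genes. The monocyte or macrophage markers summed to 220 to 1322 CPM in this class in iKO and 259 to 1255 in control, and its own 6 markers to 5456 to 6462 and 5585 to 6132.

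The cDC2 gave no difference past the threshold. EdgeR called 0 of 9 genes, against 0.929% of genes higher, with 1 at an unadjusted p under 0.05 and 0 called by DESeq2. The fold changes were 0.16 (SE 0.13, adjusted p 0.642) for H2-Ab1, 0.13 (SE 0.11, adjusted p 0.648) for Cd74 and -0.19 (SE 0.15, adjusted p 0.622) for Ciita. H2-DMb1 was the gene with the low p. It was at 1288, 1436, 1064 and 1084 CPM in iKO and at 859, 762, 1056 and 1067 in control, so that iKO sample 3 and control sample 4 were level. All 5 cDC2 markers were lower in iKO in this class, with sums of 755 to 1639 CPM against 1260 to 1999.5, which overlap. The 3 C1q genes were lower without overlap, at 19.2 to 25.3 against 25.6 to 43.8. The monocyte or macrophage markers summed to 1199 to 3331 CPM in cDC2 of iKO and to 2102 to 5337 in control. Their part in the result was not tested.

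In B cells edgeR called 0 of 9, against 2.19% of genes higher, with 3 at an unadjusted p under 0.05 and 0 called by DESeq2. These 3 were H2-Ab1, H2-Eb1 and H2-DMb2, all higher in iKO, and the last 2 had adjusted p values of 0.0568 and 0.0762. Of the 9 fold changes 2 were below 0. The fold changes were 0.19 (SE 0.07, adjusted p 0.212) for H2-Ab1, 0.08 (SE 0.05, adjusted p 0.602) for Cd74 and 0.18 (SE 0.18, adjusted p 0.731) for Ciita. H2-DMb2 in the 4 control samples, given above, ran from 264 to 448 CPM. Markers of macrophages in this class were lower in iKO without overlap. Monocyte or macrophage markers summed to 318 to 353 CPM against 443 to 1343.5 in control, and C1q genes to 46.8 to 89.0 against 136 to 210. Their part in the result was not tested.

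**Figure D5:**
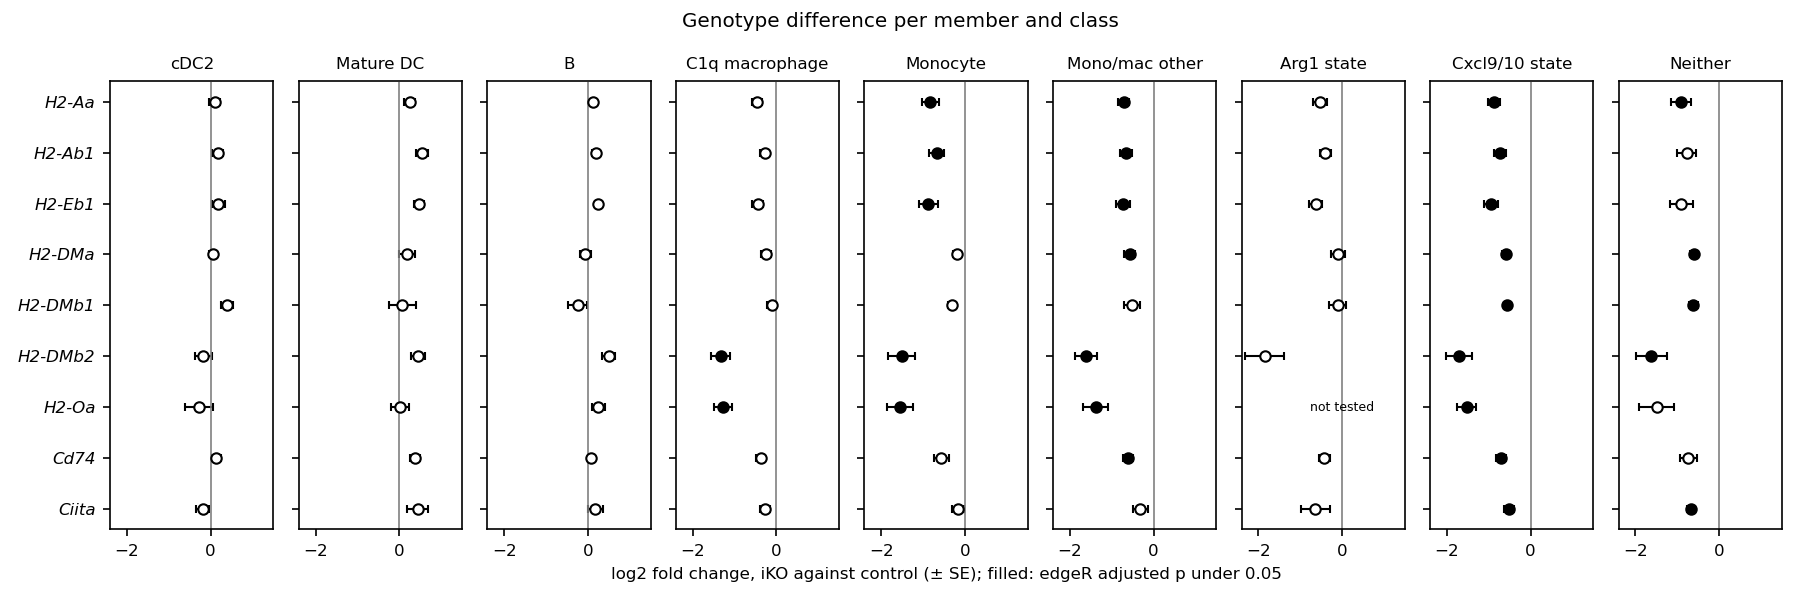
Log2 fold change (iKO against control) with its standard error for the 9 genes in 9 classes; filled points have an adjusted p under 0.05 by edgeR's quasi-likelihood test. All filled points lie below 0, and the mature dendritic cells' points lie above it.

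The differences between classes were tested as an interaction. The iKO effect in cDC2 minus that in monocytes/macrophages was 0.71 (SE 0.14, adjusted p 0.0495) for H2-Aa, 0.67 (SE 0.11, adjusted p 0.0394) for H2-DMb1 and 0.62 (SE 0.12, adjusted p 0.0465) for Cd74. These were 3 of 21 genes called among 10397. The same fit with mature dendritic cells was added after the opposite directions were seen. There the difference was 1.06 (SE 0.19, adjusted p 0.0309) for H2-Eb1, 1.78 (SE 0.26, adjusted p 0.0091) for H2-DMb2 and 0.84 (SE 0.16, adjusted p 0.0477) for Cd74, 3 of 26 genes called among 10718. With 1 sample left out, each of the 3 cDC2 calls was lost in 6 of 8 fits, and those with mature dendritic cells in 3 for H2-Eb1, 1 for H2-DMb2 and 5 for Cd74. All 6 calls were lost under stricter gates. There the cDC2 fit rested on 2 iKO and 3 control samples, with differences of 0.82 for H2-Aa, 0.56 for H2-DMb1 and 0.71 for Cd74 (adjusted p 0.187, 0.420 and 0.187), and that with mature dendritic cells, on 4 of each, gave 0.90 for H2-Eb1, 1.81 for H2-DMb2 and 0.69 for Cd74 (adjusted p 0.136, 0.0983 and 0.181).

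Outside the antigen-presenting classes few calls were made. In CD8 T cells H2-Oa fell by 1.34 (SE 0.24, adjusted p 0.0150), against 1.36% of genes lower. It was at 4.97, 5.64, 10.1 and 7.59 CPM in iKO and at 16.9, 18.6, 11.1 and 18.0 in control, without overlap, and 1 of 7 members tested was called. The call was lost without iKO sample 1, iKO sample 2 or control sample 2. Markers of 3 other classes in these CD8 T cells were lower in iKO without overlap: cDC2 markers summed to 7.17 to 11.01 CPM against 13.8 to 18.5, monocyte or macrophage markers to 134 to 215 against 221 to 247, and C1q genes to 39.5 to 48.9 against 59.7 to 86.3. B cell markers (2.62 to 8.73 and 7.14 to 12.5) and mature dendritic cell markers (16.2 to 74.8 and 42.0 to 152) overlapped. Their part in the result was not tested. Neutrophils had 0 of 6 members called by edgeR, against 2.25% of genes higher, with 0 at an unadjusted p under 0.05 and 0 by DESeq2. The neutrophil samples held 34 to 398 cells. Their H2-Aa level ran from 75.7 to 572 CPM in iKO and from 292 to 441 in control. With this spread the count of 0 does not show that the groups were alike. Stricter gates called some members lower. The median chain and Cd74 level of single neutrophils was lower in iKO without overlap. Both are given below. In the whole samples edgeR called 0 of 9, against 0.832% of genes lower, with 1 at an unadjusted p under 0.05 and 0 by DESeq2.

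The share of cells with a UMI gave the same direction at equal depth. H2-Ab1 was found in 84.8% ± 1.4 of monocytes/macrophages in iKO and 93.3% ± 2.1 in control. With each cell thinned to 2000 UMIs the shares were 60.04% ± 3.1 and 73.6% ± 5.9, and in CD8 T cells, the background, 13.8% ± 2.9 and 22.1% ± 3.2. The thinning left out 23 iKO and 18 control monocytes/macrophages with fewer UMIs, and the median UMI counts were 14265 to 16336 and 13189 to 14896 in that class and 7610 to 17897 and 7636 to 11721 in CD8 T cells. Ciita was found in 34.5% ± 3.7 and 37.2% ± 2.8 of monocytes/macrophages, and in 3.23% ± 1.25 and 3.59% ± 1.02 of CD8 T cells.

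Genes with the most similar pattern were sought over 100 profiles of class and sample, which share samples and free RNA, among 7800 genes. The 5 genes outside the members with the highest Pearson r to H2-Ab1 were Erp29 (0.934), Prcp (0.933), Ifi30 (0.931), Plekho1 (0.930) and Fgd2 (0.921). To Ciita they were Erp29 (0.902), Plekho1 (0.890), Ly86 (0.889), Fgd2 (0.888) and Ifi30 (0.869). Ifi30 encodes a thiol reductase that unfolds antigens in endosomes. Among the members, r to H2-Ab1 ran from 0.621 for H2-Oa to 0.989 for H2-Aa.

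A list of 33 other genes of the pathway, of which 32 are in the files, was read in the same fits. In monocytes/macrophages 4 of 32 rose, against 6.25% of all genes tested, and 2 fell, against 5.28%. Ifng, which encodes interferon gamma, rose by 1.74 (adjusted p 0.0042). Lag3, a class II receptor of T cells, rose by 0.99 (adjusted p 0.0217), and H2-Ob, the partner chain of H2-Oa, fell by 0.91 (adjusted p 0.0106). Spi1, a myeloid transcription factor, rose by 0.56, and Rfxap, a subunit of the factor that binds the X box, fell by 0.48; both were named after their values were seen. Ifng and Lag3 are T and NK cell genes, at 8.39 and 3.71 CPM in iKO, and T cell markers were also higher in this class, as given above. The call of Lag3 was lost in 4 of 8 fits with 1 sample left out, and those of Ifng and H2-Ob in none.

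Monocytes had 8 pathway genes higher (8.13% of all genes) and 2 lower (6.68%) of 30 tested, so the number lower was about that of all genes. Ifng rose by 2.01, Cd40, a costimulatory receptor, by 1.75 and Socs1, an inhibitor of interferon signalling, by 1.64. With 1 sample left out the call of Ifng stood in all 8 fits, that of Cd40 was lost in 1 and that of Socs1 in 5. In C1q macrophages Ifng rose by 1.38 (1.65% of all genes rose) and H2-Ob fell by 1.04 (1.58% fell), the only calls among 30, lost in 6 and 4 of 8 such fits. The remaining monocytes/macrophages had 3 higher (7.11% of all genes) and 2 lower (7.77%) of 25. Socs1 rose by 1.86, and Ctsl, a cathepsin, fell by 1.06 and Rfxap by 0.79, with calls lost in 5, 3 and 0 of 8 fits.

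The inflammatory states were read in the same way. In the Cxcl9/10 state Ifng rose by 2.02 and Nfya, a subunit of the Y box factor, by 0.58, and H2-Ob fell by 1.24, of 29 tested, against 3.5% of all genes higher and 2.68% lower. These calls were lost in 1, 5 and 0 of 8 fits with 1 sample left out. Cells with neither state had 4 higher (4.03% of all genes) and 2 lower (3.16%) of 31. Ifng rose there by 1.67 and Cd40 by 1.06, and H2-Ob fell by 1.11, with calls lost in 0, 6 and 7 of 8 fits.

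The other classes moved few pathway genes. In the Arg1 state 3 of 27 tested rose, against 2.17% of all genes, among them Ifng by 2.10 and Irf1, an interferon-induced factor, by 1.14. The call of Ifng stood in all 8 fits with 1 sample left out and that of Irf1 was lost in 7. B cells (of 21 tested), neutrophils (of 23) and CD8 T cells (of 26) had 1 higher each, against 2.19%, 2.25% and 1.98% of all genes. In whole samples Cd40 was the single call of 32 (1.03, against 1.69% higher), lost in 6 of 8 fits. In cDC2 edgeR called 0 of 25, with 8 at an unadjusted p under 0.05 and 0 by DESeq2. In mature dendritic cells edgeR called 0 of 27, with 7 at an unadjusted p under 0.05 and 2 by DESeq2.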

How the data were processed

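The authors deposited UMI counts, whole numbers for each gene in each cell, as 1 matrix per hashtagged sample. The submitters' processing notes name Cell Ranger 7.1.0 and GRCm39. The library was a 10x 3' v3 kit with TotalSeqA hashtags, per the labels' protocols. The 9 genes were matched by symbol. The members, marker lists, pathway list and tests were chosen with earlier results of these data known.

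Hashtags and 92 spike-in features, all at 0 counts, were left out. Of 23731 barcodes, 1241 with fewer than 300 genes or over 10% mitochondrial counts were removed, then 438 doublets (1.95%; Scrublet in scanpy 1.11.5, expected rate 0.06, score above 0.25), which left 22052 cells. In 7 samples every cell had its own hashtag on top, and in iKO sample 3 it was 99.8%. Samples of one group differed from each other by 7.65 to 213 in chi-square divided by its degrees of freedom, and no 2 were treated as 1 library.

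Class gates counted detected markers. They needed at least 4 of 6 T cell, 3 of 6 B cell, 4 of 6 neutrophil or 4 of 7 monocyte or macrophage markers. The dendritic cell gates needed 4 of 6 mature dendritic cell, 4 of 6 plasmacytoid, 3 of 5 cDC1 or 2 of 5 cDC2 markers. The cDC2 gate also needed Flt3 or Zbtb46 and at most 1 C1q gene. Cells that met 2 lineages were left ungated, with some exceptions. A cell that met a dendritic cell gate was placed there whatever its monocyte, macrophage or NK markers. Neutrophils could hold up to 4 monocyte or macrophage markers, and T cells could hold NK markers. These numbers of markers were set with the data in view. The classes are rebuilt, and many cells lie at a threshold, 124 of the 351 cDC2 among them.

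Counts were summed per sample and class with at least 20 cells. The main test was edgeR 4.0.16 in R 4.3.3 (TMM, filterByExpr, quasi-likelihood, no block, Benjamini-Hochberg over all genes of the class), on samples of 4 against 4, tested on simulated data. Genotype is the pool. Fold change, SE and adjusted p are printed for called members and for H2-Ab1, Cd74 and Ciita in monocytes/macrophages, cDC2 and B cells, and of the pathway list for the up to 4 called genes with the largest fold change per class. One gene of that list is counted but not reported by name. Levels between classes were compared by exact sign-flip permutation (scipy 1.17.1). Depth per cell was evened by the expected share after thinning to 2000 UMIs. Alternatives were RLE size factors, DESeq2 1.42.0, no filter, each sample left out, a replicate block, stricter gates, no doublet removal, and the T cell level subtracted. Promoters came from RefSeq, and figures were drawn with matplotlib 3.10.9.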

Additional observations from a re-analysis of the deposited data

Results flagged for a closer look

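Among 90 groups of 4 samples, 4 had 1 sample far from the other 3 by Dixon's criterion for 4 values, and chance flags about 1 group in 20. H2-DMb1 in mature dendritic cells was at 147.91 CPM in iKO sample 2 and at 86.8 to 96.3 in the other iKO samples. H2-DMb2 in B cells was at 466.68 CPM in iKO sample 2 and at 443.55 to 445.23 in the other three. H2-DMa in the Cxcl9/10 state was at 468.31 CPM in iKO sample 2 and at 495.05 to 498.47 in the others. H2-DMb1 in the same state was at 899.96 CPM in control sample 4 and at 743.61 to 757.11 in the other control samples. For the last 3 the others lay so close together that a small distance sufficed.

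The genotype effect differed between classes for 6 combinations of gene and class pair, by the interaction term of the edgeR fit. The effect in cDC2 minus that in monocytes/macrophages was 0.7106 for H2-Aa, 0.668 for H2-DMb1 and 0.6218 for Cd74 on the log2 scale. The effect in mature dendritic cells minus that in monocytes/macrophages was 1.0608 for H2-Eb1, 1.7755 for H2-DMb2 and 0.8447 for Cd74.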

How the results depend on the processing

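Counts of members called out of 9 depended most on the samples and on the handling of free RNA. The shares of all genes called in these other fits are not given, so the counts show only how the calls moved. With 1 sample left out, the count in monocytes/macrophages ran from 1 to 6 (5 with all samples; lowest 1 without iKO sample 1, highest 6 without control sample 1), in C1q macrophages from 0 to 2, in monocytes from 2 to 7, in cells with neither state from 3 to 9, in the Arg1 state from 0 to 4, in CD8 T cells from 0 to 4 and in B cells from 0 to 2. In the interaction fits it ran from 0 to 5 for cDC2 and from 0 to 5 for mature dendritic cells. In the Cxcl9/10 state it ran from 6 to 9 and in the remaining monocytes/macrophages from 6 to 7.

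With the T cell level subtracted from every gene, fewer genes passed the filter. The T cell level is not a common free-RNA level for H2-Oa, and for H2-DMa and Cd74 it may not be one. The count was then 0 in monocytes/macrophages, C1q macrophages, monocytes and the Cxcl9/10 state, 1 in the remaining monocytes/macrophages and 3 in cells with neither state, while 8 members in monocytes/macrophages kept an unadjusted p under 0.05. The fold changes were no smaller, for example -0.77 (adjusted p 0.0885) for H2-Aa and -1.55 (adjusted p 0.0539) for H2-DMb2 in monocytes/macrophages. Cd74 in B cells reversed there, to -0.0272, with neither value past the threshold. The cause was not tested. With the level subtracted from the members only, chosen after this was seen, the count was 3 in monocytes/macrophages, 1 in C1q macrophages, 1 in B cells and 8 in the Cxcl9/10 state.

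DESeq2 called 2 members in mature dendritic cells, 5 in C1q macrophages, 3 in the Arg1 state, 9 in cells with neither state and 4 in CD8 T cells. Without the filter on low counts edgeR called 2 in mature dendritic cells, 1 in B cells, 2 in the Arg1 state, 9 in cells with neither state and 2 in CD8 T cells. Stricter gates gave 0 in C1q macrophages, 2 in the Arg1 state, 4 lower in neutrophils and 0 in both interaction fits, and 0 in cDC2, on 2 iKO and 3 control samples with at least 20 cells. Without doublet removal CD8 T cells had 3. RLE size factors changed no count by more than 1. The cause of these changes was not tested.

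A replicate block on the sample number gave 2 members in monocytes/macrophages, 1 in B cells, 1 in the Arg1 state and 5 in CD8 T cells. Sample numbers did not pair the samples: deviations of equal-numbered samples correlated at 0.228, -0.085, -0.007 and 0.149. For single genes 908 alternative values kept direction and side of the threshold, 242 lost the call, 3 gained one and 1 reversed. No neighbour pair passed with a pseudocount of 10 or under stricter gates.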

Other observations

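The summed level of H2-Aa, H2-Ab1, H2-Eb1 and Cd74 was also read in single cells. Their spread includes counting noise and is not of one kind with differences between sample medians. Per 10000 UMIs of a cell, the median of monocytes/macrophages ran from 39.9 to 67.1 over iKO samples and from 54.8 to 176 over controls, while within iKO the 10th percentile was 3.03 to 4.08 and the 90th 364 to 405. In mature dendritic cells the medians overlapped, at 104 to 164 in iKO and 80.8 to 180 in control, and the upper quartile was 372 to 416 in iKO and 200 to 299 in control, without overlap. In B cells the 10th percentile was already 127 to 160 in iKO and 111 to 154 in control. CD8 T cells had medians of 2.22 to 3.89 and 4.66 to 6.58. Neutrophils had medians of 3.84 to 5.73 in iKO and 9.29 to 12.6 in control. The medians of the groups did not overlap in either of these classes. Whether the neutrophil difference was expression or free RNA was not tested.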
